A study of Homo sapiens with 16 samples.

Results

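The genes described here are 9 effectors of the integrated stress response, namely ATF4, DDIT3, TRIB3, CHAC1, GDF15, STC2, SESN2, PPP1R15A and DDIT4. They were taken by gene symbol from 3 deposited tables of ribosome profiling in A549 cells, a line grown from a human lung carcinoma of the non-small cell kind, and all 9 were among the 12587 symbols listed in any sample. In the integrated stress response, kinases that sense unfolded protein, amino acid shortage, viral RNA or heme shortage phosphorylate the translation factor eIF2, which lowers protein synthesis in general. Upstream open reading frames then let ribosomes reach the coding sequence of ATF4 more often, and the ATF4 protein switches on genes for amino acid supply, redox balance, growth arrest and, after long stress, cell death. Tumour cells use the same programme to live with a poor supply of nutrients.

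Ribosome profiling counts the short RNA stretches that ribosomes shield from nuclease (footprints), while total RNA of the same cells, broken up with zinc and sequenced beside them (input), tells how much mRNA there is. The treated groups were sgM16, a pair of hybrid clones from 1 guide RNA against METTL16, an RNA methyltransferase; shM16, 1 sample with 1 hairpin against METTL16; and sheIF4E2, 2 biological replicates with 1 hairpin against eIF4E2, a cap-binding protein known as a repressor of initiation. The controls were 1 sample labelled untreated for sgM16, shscramble replicate 1 for shM16 and shscramble replicate 2 for sheIF4E2, each in the same table as its treated samples. The series text calls the control of the guide sgNS while its label gives no guide, so guide delivery and cloning cannot be told apart from loss of METTL16. All 8 samples had fresh medium for 2 h and cycloheximide, which stalls ribosomes, at 100 µg/mL for 5 min. No labelled sample received a stress agent.

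Values are TPM (read number over gene length, brought to 1 common sum for every library), and the tables were listed separately. Whole reads were recovered from them for 11892 of 11892 genes within a relative tolerance of 1e-10, up to a factor common to all libraries of a gene. Footprint libraries held 196995 to 876336 of these reads and input libraries 462611 to 699461, with 7 to 30 and 18 to 25 reads for the median gene. METTL16 input was 6.80 and 6.94 TPM in the sgM16 clones against 12.8 TPM in untreated cells, and 3.50 TPM in shM16 against 11.1 TPM in its control. EIF4E2 input was 7.69 and 3.57 TPM in sheIF4E2 against 21.4 TPM in its control. At an adjusted p under 0.05 limma called neither target in input. The log2 change of TPM + 1 was -0.81 for METTL16 in sgM16 (SE 0.45, adjusted p = 0.551). For EIF4E2 in sheIF4E2 it was -1.83 (SE 0.60, adjusted p = 0.590). By voom on the recovered reads EIF4E2 was called (adjusted p = 0.000429) and METTL16 was not. Of 12 markers of A549, 11 to 12 were listed in each sample, with a summed input of 4180 to 6227 TPM. Of 11 measured in the sgM16 table, 9 were lower in both clones in input (29.6% of genes) and 0 higher (43.3%). Their median change was -0.56 against 0.10 over all genes. In sheIF4E2 input 5 of 11 were lower in both replicates (46.0% of genes) and 5 higher (30.1%). The bearing of the shift in the clones on the effector values was not tested. Of 11 markers of blood, endothelial and fibroblast cells, 2 to 3 were listed per sample (among CD14, COL1A1 and LUM), with a summed input of 6.19 to 33.4 TPM. In these bulk libraries fewer expressing cells and less RNA per cell cannot be told apart.

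The effectors spanned a wide range of mRNA levels per length. ATF4 (chromosome 22, 39520559 to 39522686 in GRCh38.p14), the transcription factor of the pathway, and DDIT4 (chromosome 10, 72273924 to 72276036), an inhibitor of mTORC1 signalling also called REDD1, were the most abundant by their median over all 8 samples. The median input of ATF4 was 136 TPM with a range of 73.8 to 189 TPM, and that of DDIT4 was 139 TPM with a range of 70.4 to 250.2 TPM. These ranges overlap almost fully, and their order is not set by the data. TRIB3 (chromosome 20, 380760 to 397559), a pseudokinase that ATF4 induces and that dampens its activity, followed at a median of 63.9 TPM (35.5 to 94.9 TPM). STC2 (chromosome 5, 173314723 to 173328414), a secreted glycoprotein, stood at 55.9 TPM (30.3 to 78.7 TPM), and PPP1R15A (chromosome 19, 48872421 to 48876058), also known as GADD34, the regulatory subunit that directs protein phosphatase 1 to eIF2, at 51.1 TPM (26.3 to 72.9 TPM). The ranges of these neighbours overlap as well.

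GDF15 (chromosome 19, 18386158 to 18389176), a secreted stress cytokine of the TGF-beta superfamily, varied most, from 9.51 to 125 TPM with a median of 22.3 TPM. SESN2 (chromosome 1, 28259518 to 28282491), a leucine sensor that restrains mTORC1, had a median of 8.15 TPM over the 7 samples that listed it (1.43 to 14.1 TPM). CHAC1 (chromosome 15, 40953471 to 40956512), which degrades glutathione, had a median of 7.04 TPM (4.28 to 26.5 TPM). DDIT3 (chromosome 12, 57516588 to 57520517), which encodes the death-linked factor CHOP, was near the limit of detection. It had 1.66 to 4.38 TPM from 1 to 2 input reads in the 7 samples that listed it, all below the level of 3 reads, and its footprints were 0 apart from 1 read in sheIF4E2 replicate 2. DDIT3 failed the expression filter in every table and SESN2 failed it in the shM16 table, so 8, 7 and 8 effectors were measured in the sgM16, shM16 and sheIF4E2 comparisons.

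**Figure D1:**
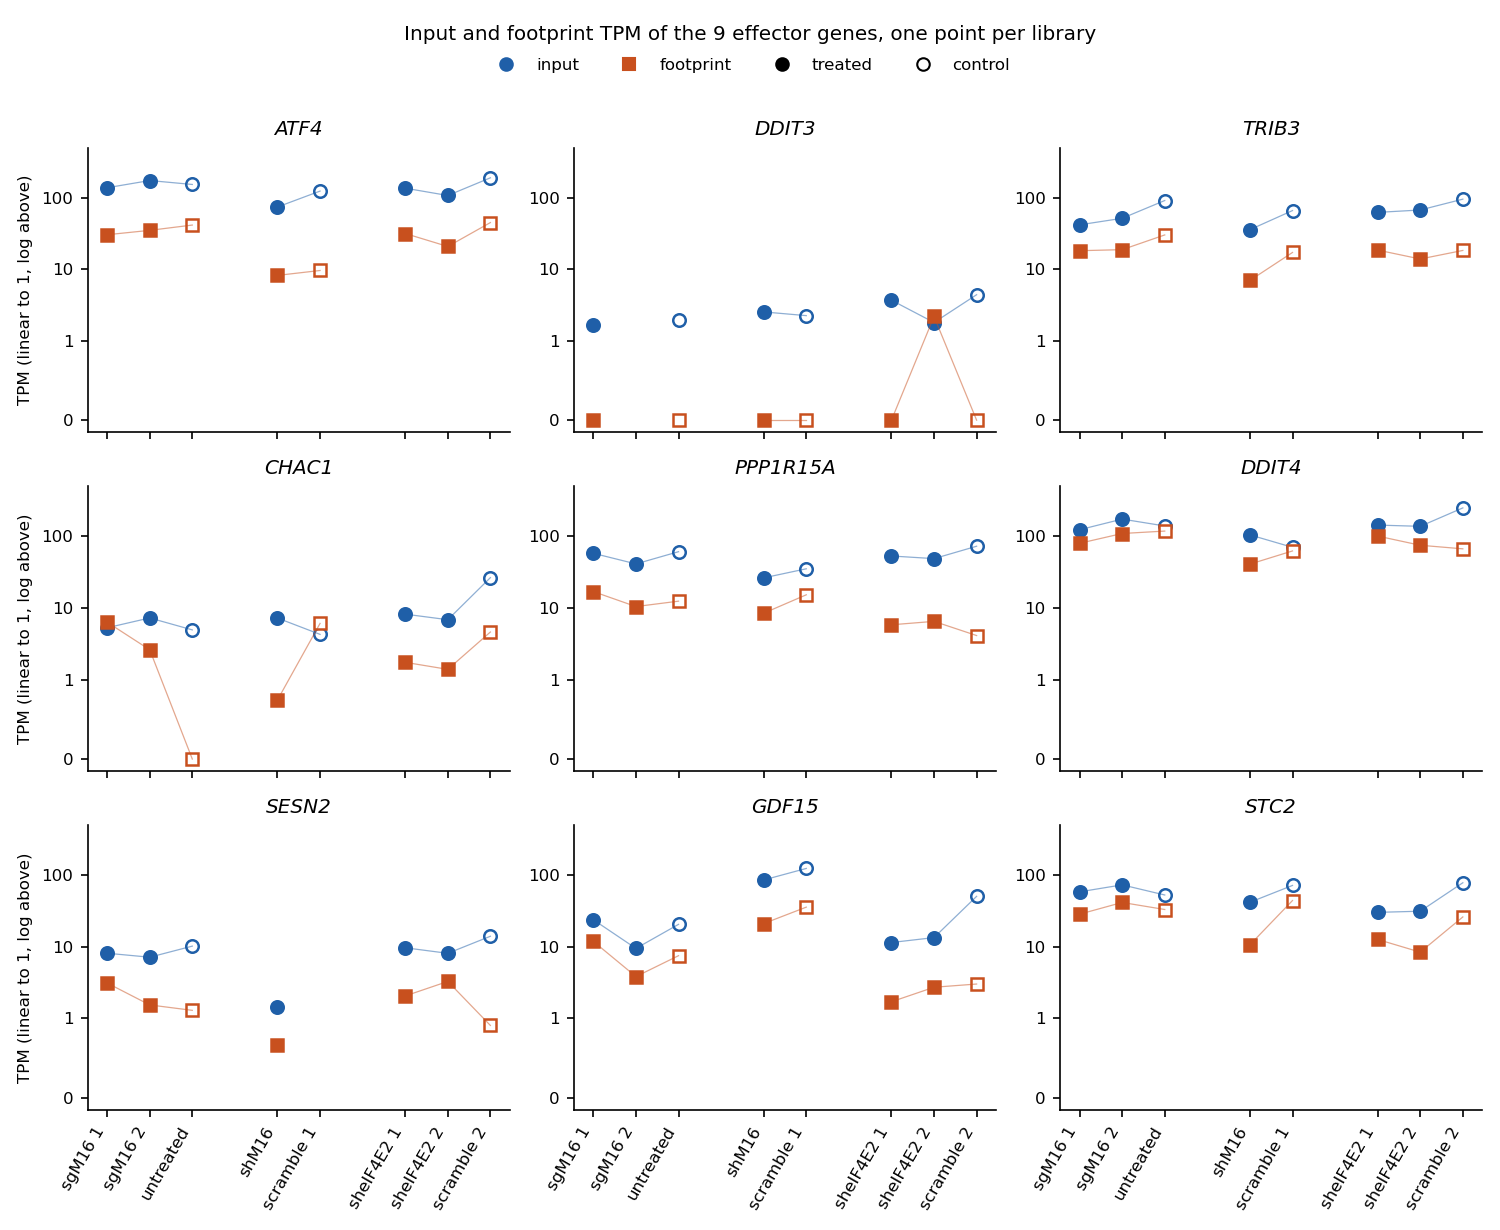
Input (circles) and footprint (squares) TPM of each of the 9 effectors in each library, on an axis linear to 1 TPM and logarithmic above, with treated samples filled and controls open. Thin lines join the samples of 1 table; GDF15 input reaches 125 TPM in shscramble replicate 1 against 20.6 TPM in untreated cells, and DDIT3 stays at or below 4.38 TPM.

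The promoters are shown because the effectors are textbook targets of shared factors and their mRNAs lay on 1 side of the table's own control in the eIF4E2 comparison below. That joint side was not kept against the other controls, and a link to the promoters was not tested. RefSeq windows of GRCh38.p14 from 250 bases before to 50 bases after the start of transcription were found for all 9 effectors and for 27305 genes in all. The letters TGATGNAA, the C/EBP-ATF response element that ATF4 binds with a partner, were searched on both strands and stood in 4.46% of all genes. They were found in 1 of the 9 effectors, CHAC1, and in 12 of 31 other textbook ATF4 targets with a window (38.7%). The palindrome TGACGTCA, the cAMP response element, stood in 2.25% of all genes, in PPP1R15A among the effectors and in 0 of the 31 other targets. An endoplasmic reticulum stress element, CCAAT and CCACG with 9 free bases between them, stood in 0.0916% of all genes and in 0 effectors. Each of CHAC1 and PPP1R15A held 1 match, with no overlap, and a missing match says only that these letters are not in this window. The 250 bases before the start follow for CHAC1 (chr15:40953221-40953470, plus strand), PPP1R15A (chr19:48872171-48872420, plus), STC2 (chr5:173328415-173328664, minus) and GDF15 (chr19:18385908-18386157, plus), with matches in capitals.
CHAC1: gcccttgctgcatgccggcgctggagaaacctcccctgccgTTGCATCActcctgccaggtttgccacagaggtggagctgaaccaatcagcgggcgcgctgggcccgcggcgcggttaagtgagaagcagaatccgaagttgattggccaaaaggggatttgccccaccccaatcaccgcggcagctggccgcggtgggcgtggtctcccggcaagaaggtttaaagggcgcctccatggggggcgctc
PPP1R15A: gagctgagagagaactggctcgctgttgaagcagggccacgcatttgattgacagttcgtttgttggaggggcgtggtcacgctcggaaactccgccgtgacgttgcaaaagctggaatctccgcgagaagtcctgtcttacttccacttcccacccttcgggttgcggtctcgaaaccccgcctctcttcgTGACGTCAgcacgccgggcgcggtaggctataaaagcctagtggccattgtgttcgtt
STC2: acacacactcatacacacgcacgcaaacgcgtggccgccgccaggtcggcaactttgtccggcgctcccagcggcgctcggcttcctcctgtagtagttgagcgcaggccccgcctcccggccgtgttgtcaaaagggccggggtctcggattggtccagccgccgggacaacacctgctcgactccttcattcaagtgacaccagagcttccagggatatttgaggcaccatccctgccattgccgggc
GDF15: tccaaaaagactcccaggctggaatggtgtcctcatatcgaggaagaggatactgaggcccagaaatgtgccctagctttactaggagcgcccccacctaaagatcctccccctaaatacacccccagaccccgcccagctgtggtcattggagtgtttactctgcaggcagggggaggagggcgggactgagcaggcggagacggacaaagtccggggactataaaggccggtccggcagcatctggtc
The match in CHAC1 runs from base -209 to -202 and reads on the minus strand, and that in PPP1R15A runs from -58 to -51.

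The CHAC1 element can be set beside that of other ATF4 targets, each read on the strand where the capitals spell TGATGNAA, with 11 bases on either side. ASNS, the asparagine synthetase gene (chr7:97872458-97872487), and CEBPG, which encodes a partner of ATF4 (chr19:33374060-33374089), are classical bearers of it. The remaining lines are SLC1A5, a glutamine transporter (chr19:46784893-46784922), AARS1, alanyl-tRNA synthetase (chr16:70289675-70289704), and MARS1, methionyl-tRNA synthetase (chr12:57488053-57488082), shown because their values return below.
CHAC1: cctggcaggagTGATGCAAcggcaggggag
ASNS: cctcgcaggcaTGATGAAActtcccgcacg
CEBPG: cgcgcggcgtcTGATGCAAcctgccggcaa
SLC1A5: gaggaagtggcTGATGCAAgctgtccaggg
AARS1: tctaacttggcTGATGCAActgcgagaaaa
MARS1: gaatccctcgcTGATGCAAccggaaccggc
At the free base of the motif CHAC1, CEBPG, SLC1A5, AARS1 and MARS1 carry C while ASNS carries A.

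With the eIF4E2 hairpin, the input of all 8 measured effectors was lower in both replicates than in the scramble control, a pattern that 46.0% of all genes showed. The median change was -0.73 on the log2 scale of TPM + 1, against -0.10 over all 8597 genes, and no effector lay above the all-gene median. The differences were largest for GDF15, CHAC1 and STC2, which were at least 1 log2 unit lower in both replicates (2.61% of genes). None of the 8 was called by limma at an adjusted p under 0.05, where 0.0116% of genes were called higher and 0% lower. With no adjustment of p, 4 were lower at the same threshold (CHAC1, GDF15, STC2 and DDIT4; 4.13% of genes). By voom on the recovered reads 3 were called lower (GDF15, STC2 and DDIT4; 2.47% of genes). The voom fit used the same single control library per assay, so its p-values hold no spread between controls. It was not run with all 3 controls.

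ATF4 input was 135 and 107 TPM in sheIF4E2 against 189 TPM in the control, and its footprints were 31.4 and 20.7 TPM against 44.7 TPM. Both knockdown samples lay below the control in each assay. The input change was -0.65 (SE 0.31, adjusted p = 0.737) and the footprint change -0.78 (SE 0.31, adjusted p = 0.269), neither past the threshold. ATF4 reads of the knockdown over those of the control gave a ratio of 0.640 in input (95% interval 0.526 to 0.780), and the footprint ratio was 0.569 (0.357 to 0.911). These intervals cover counting error only, since reads from PCR are not independent molecules.

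Among the feedback genes, TRIB3 input was 62.0 and 66.9 TPM in sheIF4E2 against 94.9 TPM in the control, a reads ratio of 0.680 (0.533 to 0.871). TRIB3 footprints, at 18.4 and 13.8 TPM against 18.2 TPM, lay on either side of the control. PPP1R15A input was 53.3 and 48.9 TPM against 72.9 TPM, with a ratio of 0.700 (0.525 to 0.939). Its footprints went the other way, at 5.82 and 6.50 TPM (5 and 7 reads) against 4.12 TPM (4 reads), a ratio of 1.51 with an interval of 0.456 to 6.40 that spans 1.

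Among the genes of redox and growth control, CHAC1 input was 8.19 and 6.86 TPM in sheIF4E2 against 26.5 TPM in the control, or 7 and 6 against 19 reads. The CHAC1 input change was -1.70 (SE 0.44, adjusted p = 0.513), with a reads ratio of 0.283 (0.129 to 0.604). Its footprints rested on 1 and 1 against 3 reads, which sets no direction. DDIT4 input was 144 and 138 TPM against 250.2 TPM, while its footprints were 101 and 75.2 TPM against 67.0 TPM. The 2 assays of DDIT4 thus lay on opposite sides of the control. The DDIT4 input change was -0.82 (SE 0.24, adjusted p = 0.519; voom adjusted p = 0.0066), and the reads ratio was 0.564 (0.464 to 0.685) in input and 1.29 (0.909 to 1.87) in footprints. SESN2 input was 9.71 and 8.12 TPM against 14.1 TPM, a ratio of 0.633 whose interval of 0.331 to 1.24 spans 1.

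The secreted effectors GDF15 and STC2 were both lower by more than 1 log2 unit in input. GDF15 input was 11.5 and 13.5 TPM in sheIF4E2 against 50.8 TPM in the control, or 10 and 12 against 37 reads. The GDF15 input change was -1.94 (SE 0.43, adjusted p = 0.462; voom adjusted p = 0.00256), with a reads ratio of 0.246 (0.138 to 0.428). GDF15 footprints had only 1 and 2 against 2 reads. STC2 input was 30.3 and 31.5 TPM against 78.7 TPM, and its footprints were 12.7 and 8.43 TPM against 26.2 TPM. The STC2 change was -1.32 in input (SE 0.33, adjusted p = 0.508; voom adjusted p = 1.58e-05), and its footprint change was -1.26 (SE 0.33, adjusted p = 0.142; voom adjusted p = 0.0292). Its reads ratios of 0.393 (0.307 to 0.502) and 0.394 (0.242 to 0.637) were close to each other, and STC2 was the 1 effector that voom called in both assays.

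In footprints as a whole, 4 of 8 effectors were lower in both sheIF4E2 replicates (ATF4, CHAC1, GDF15 and STC2; 22.6% of genes) and 3 were higher (SESN2, PPP1R15A and DDIT4; 48.0%). The median footprint change was -0.26 against 0.20 over all genes. Limma called 0 effectors, against 0.570% of genes higher and 0.0582% lower. Unadjusted, 3 effectors were lower at that threshold (ATF4, CHAC1 and STC2; 2.92% of genes), and voom called 1 lower (0.442% of genes). Set against untreated cells, 6 of 8 effectors were lower in footprints in both replicates (ATF4, TRIB3, GDF15, STC2, PPP1R15A and DDIT4; 64.5% of genes), and CHAC1 and SESN2 were higher (13.1%). Set against shscramble replicate 1, 4 of 7 were lower (CHAC1, GDF15, STC2 and PPP1R15A; 38.1% of genes), and ATF4 and DDIT4 were higher (35.0%). The footprint-to-input ratio was higher in both replicates for 6 of 8 effectors (52.8% of genes), with a median change of 0.78 against 0.32 over all genes. It was at least 1 log2 unit higher in both for GDF15, SESN2 and DDIT4 (10.1% of genes). DDIT4 had 60 and 56 footprint reads against 45. SESN2 rested on 2 and 4 footprint reads against 1, GDF15 on 1 and 2 against 2, and CHAC1 on 1 and 1 against 3. The ratios of SESN2, GDF15 and CHAC1 are therefore limited by depth. Limma and voom called 0 ratios among the effectors and 0 among all genes; 2 effectors, GDF15 and DDIT4, had an unadjusted p under 0.05 (9.39% of genes in either direction). With each sample as a replicate block these p-values were 0.0518 for GDF15 and 0.0655 for DDIT4. The median ratio change was -0.023 against all 3 controls in 1 fit. In that fit GDF15 was at 0.18 and DDIT4 at 0.074, so neither kept its rise of more than 1 log2 unit. ATF4 was at 0.30, TRIB3 at -0.023, CHAC1 at -0.25, PPP1R15A at -0.46 and STC2 at -0.52. With a filter at a mean of 5 TPM, against the control of the table, the median was 0.37. STC2 had a ratio change of 0.06 (SE 0.47, adjusted p = 0.970), with 0.36 and -0.23 in the replicates.

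**Figure D2:**
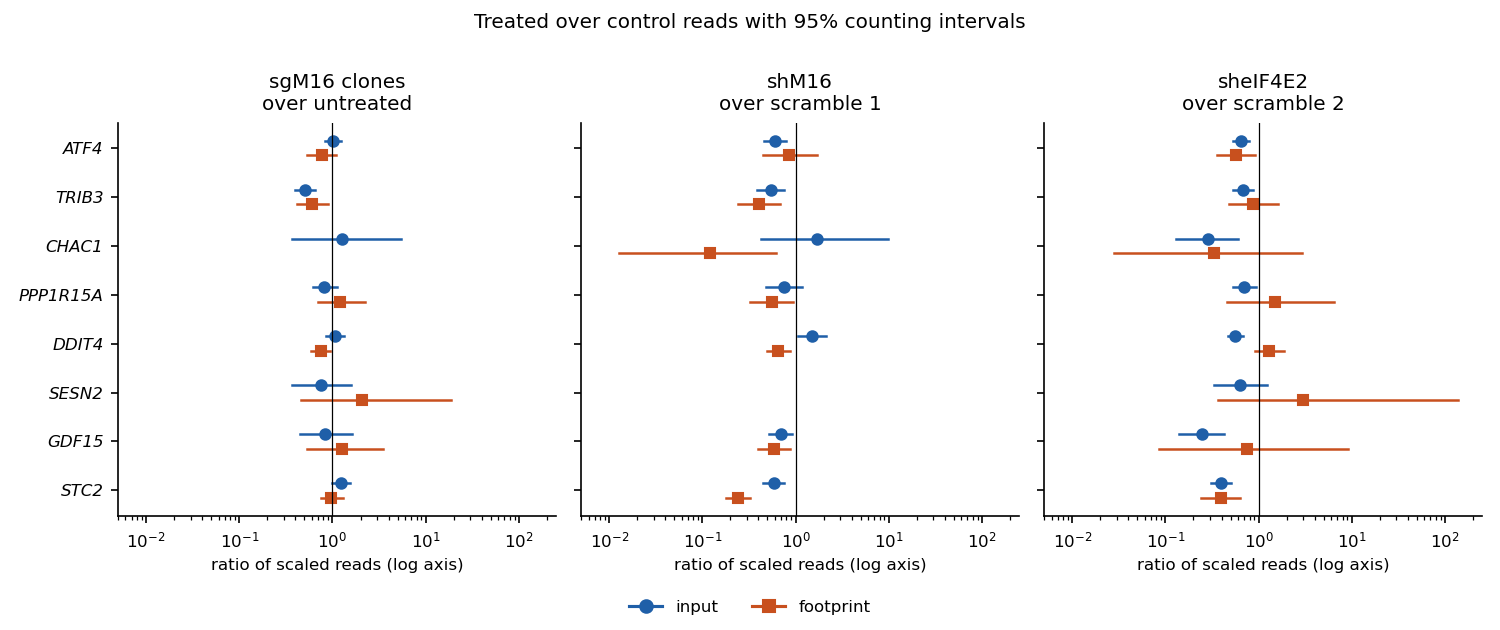
Ratio of scaled reads, treated over control, for input (circles) and footprints (squares) on a logarithmic axis, with 95% Clopper-Pearson intervals for counting error; replicates of a treated group are summed. In sheIF4E2 the input intervals of 7 of 8 effectors lie below 1 and that of SESN2 spans it; CHAC1 footprints of the sgM16 clones have no point because the control has 0 reads.

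The reads interval lay below 1 for 7 of 8 effectors in sheIF4E2 input, against 16.0% of all genes. How far the count of 8 depends on its control was read by setting the same knockdown samples against the controls of the other tables, whose values were scaled separately. Against untreated cells 6 of 8 effectors were lower in both replicates (19.8% of genes) and CHAC1 was higher (57.4%). Against shscramble replicate 1 only GDF15 and STC2 of 7 were lower in both (33.6% of genes), while CHAC1, PPP1R15A and DDIT4 were higher (52.1%). The control of the eIF4E2 table had the highest input of the controls for 7 of 8 effectors, and for 46.9% of genes listed in all 3 controls. SESN2, counted among the 7, was not listed in shscramble replicate 1. For GDF15 the highest control was shscramble replicate 1 (31.3%). In the control of the eIF4E2 table CHAC1 input was 26.5 TPM, against 4.28 and 4.94 TPM in the other controls. DDIT4 input was 250.2 TPM in it, against 70.4 and 139.9 TPM. GDF15 and STC2 were below all 3 controls in both replicates and in both assays (5.65% of genes in input and 12.4% in footprints), although GDF15 footprints rested on 1 and 2 reads. With all 3 controls in 1 fit, their input changes were -1.95 (adjusted p = 0.880) for GDF15 and -1.09 (adjusted p = 0.790) for STC2, and limma called 0 of 7 effectors (0.0125% of genes higher and 0% lower).

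COL1A1, a collagen gene of the fibroblast markers, moved with the knockdown at 25.3 and 32.0 TPM in sheIF4E2 input against 5.41 TPM in the control. The summed input of the other-cell markers was 27.1 and 33.4 TPM against 11.7 TPM, and COL1A1 alone carried this rise. LUM, another fibroblast marker, was at 1.80 TPM in sheIF4E2 replicate 1 and not listed in replicate 2. CD14 was at 1.42 TPM in replicate 2 and not listed in replicate 1. The control listed both LUM and CD14. COL1A2, DCN, PTPRC, CD68, CD3E, PECAM1, VWF and CDH5 were not listed. The part of the other-cell markers in the effector values was not tested.

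In the METTL16 clones, TRIB3 was the effector that differed most from the untreated control in mRNA. TRIB3 input was 41.5 and 51.2 TPM in sgM16 against 90.8 TPM in untreated cells, and both clones also lay below the lowest of the 3 controls, 65.7 TPM (6.68% of genes were below all 3). Its footprints were 18.1 and 18.7 TPM against 30.0 TPM. The TRIB3 input change was -0.96 (SE 0.30, adjusted p = 0.345) and the footprint change -0.68 (SE 0.30, adjusted p = 0.680). The reads ratio of TRIB3 was 0.507 in input (0.392 to 0.656), and that in footprints was 0.608 (0.415 to 0.901). TRIB3 was the 1 effector of 8 whose input interval lay below 1 (9.52% of genes).

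No effector passed limma in the clones in input (0.0118% of genes called higher and 0% lower), in footprints or in their ratio (0% of genes in each direction). At an unadjusted p under 0.05, TRIB3 was lower in input (2.05% of genes) and footprints (5.11%), and CHAC1 was higher in footprints (2.00%) and in the ratio (1.06%). Voom called 0 effectors in each measure, against 0.0235% of genes in each direction in input and 0% in footprints and the ratio. In input 2 of 8 effectors were higher in both clones (CHAC1 and STC2; 43.3% of genes) and 3 were lower (TRIB3, SESN2 and PPP1R15A; 29.6%), with a median of -0.15 against 0.10 over all genes. The other 3, ATF4, GDF15 and DDIT4, had the clones on either side of the control. In footprints CHAC1 and SESN2 were higher in both clones (18.4% of genes) and ATF4, TRIB3 and DDIT4 lower (52.9%), with a median of -0.03 against -0.23 over all genes.

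ATF4 input was 137 and 173 TPM in the sgM16 clones against 152 TPM in untreated cells, and its footprints were 30.2 and 34.8 TPM against 41.2 TPM. The reads ratios of 1.01 (0.834 to 1.23) and 0.764 (0.539 to 1.10) both span 1. CHAC1 footprints were 6.33 and 2.61 TPM (12 and 2 reads) in the clones, against 0 TPM (0 reads) in untreated cells. With the control set at 3 reads, clone 1 was 1.93-fold higher, a value that leaves out counting error. Clone 2 lay below the control's level for 3 reads. With 0 control reads, the interval of the reads ratio had a lower limit of 1.34 in clone 1 and 0.224 in clone 2. The limit of clone 2 lay below 1, so its counts set no direction. CHAC1 input rested on 5 and 6 against 4 reads. Untreated cells were the only 1 of the 3 controls at 0, as the shscramble controls had 6.09 TPM (8 reads) and 4.62 TPM (3 reads).

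GDF15 split the clones, at 23.9 and 9.51 TPM of input against 20.6 TPM in untreated cells, and at 11.9 and 3.84 TPM of footprints against 7.53 TPM. Clone 1 lay above the control in both assays and clone 2 below it. STC2 input was 58.7 and 73.5 TPM against 53.04 TPM, and the reads interval of clone 2 alone, 1.07 to 1.79, excluded 1. DDIT4 footprints were 80.1 and 109.8 TPM against 119 TPM, a ratio of 0.747 (0.595 to 0.943) carried by clone 1, since the interval of clone 2 was 0.691 to 1.24. SESN2 input was 8.15 and 7.16 TPM against 10.2 TPM, and PPP1R15A input 58.0 and 41.3 TPM against 61.2 TPM. The footprint-to-input ratio was higher in both clones for TRIB3, CHAC1, GDF15, SESN2 and PPP1R15A, 5 of 8 against 18.0% of genes, and lower for ATF4, STC2 and DDIT4 (55.1% of genes). The median ratio change was 0.30 against -0.33 over all genes, and it was 0.017 with a filter at a mean of 5 TPM. Footprints of SESN2 rested on 10 and 2 reads against 2, those of GDF15 on 23 and 3 against 7, and those of CHAC1 on 12 and 2 against 0.

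With the METTL16 hairpin there was 1 treated and 1 control sample, so the values have no replicate check. In input 5 of 7 effectors were lower (71.2% of genes) and CHAC1 and DDIT4 were higher (28.8%), with a median of -0.53 against -0.32 over all genes. ATF4 input was 73.8 TPM in shM16 against 123 TPM in the control, a ratio of 0.599 (0.458 to 0.785). The intervals of ATF4, TRIB3, STC2 and GDF15 lay below 1, as did those of 25.9% of genes. TRIB3, at 35.5 against 65.7 TPM, had a ratio of 0.541 (0.385 to 0.759). STC2, at 42.0 against 72.2 TPM, had 0.582 (0.451 to 0.750), and GDF15, at 86.0 against 125 TPM, had 0.690 (0.517 to 0.924). PPP1R15A was 26.3 against 35.3 TPM, with an interval of 0.477 to 1.18 that spans 1. DDIT4 stood apart at 105 TPM in shM16 against 70.4 TPM, a ratio of 1.49 (1.07 to 2.10; 4.22% of genes had an interval above 1). ATF4, TRIB3, STC2 and PPP1R15A were below all 3 controls in input, as were 47.4% of genes.

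Footprints of all 7 measured effectors were lower in shM16 than in its control, and so were those of 95.2% of genes. Their median was -0.78, against -1.06 over all genes; it was 0.42 with median-of-ratios scaling, 0.41 with quantile scaling and 0.27 by voom, with 1 effector past 1 log2 unit in place of 3. STC2 footprints were 10.7 TPM against 44.4 TPM, a ratio of 0.241 (0.178 to 0.322), and CHAC1 footprints were 0.743 TPM (2 reads) against 6.09 TPM (8 reads). ATF4 differed least, at 8.16 TPM (28 reads) against 9.56 TPM (16 reads), with a ratio of 0.854 (0.446 to 1.69). ATF4 was the 1 effector of 7 whose footprint-to-input ratio was higher in shM16, by 0.53 on the log2 scale, while the ratio was lower by 0.76 at the median of all genes and higher in 15.7% of them. The controls differed in this value, as the ATF4 ratio was 0.0777 in shscramble replicate 1 (0.0429 to 0.132), against 0.271 in untreated cells and 0.237 in shscramble replicate 2. ATF4 footprints were 9.56 TPM in it, against 41.2 and 44.7 TPM in the other controls. Against all 3 controls in 1 fit the ATF4 ratio change was -0.54 in shM16 (adjusted p = 0.862). CHAC1, STC2 and DDIT4 had a ratio at least 1 log2 unit lower in shM16 than in its own control (36.0% of genes). That fit, in which the lone shM16 sample was assumed to vary like the other groups, called 2 effectors lower in footprints against 18.9% of genes, STC2 (change -1.58, adjusted p = 0.0322) and TRIB3 (change -1.48, adjusted p = 0.0386), and 0 in input or in the ratio, where it also called 0 genes.

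**Figure D3:**
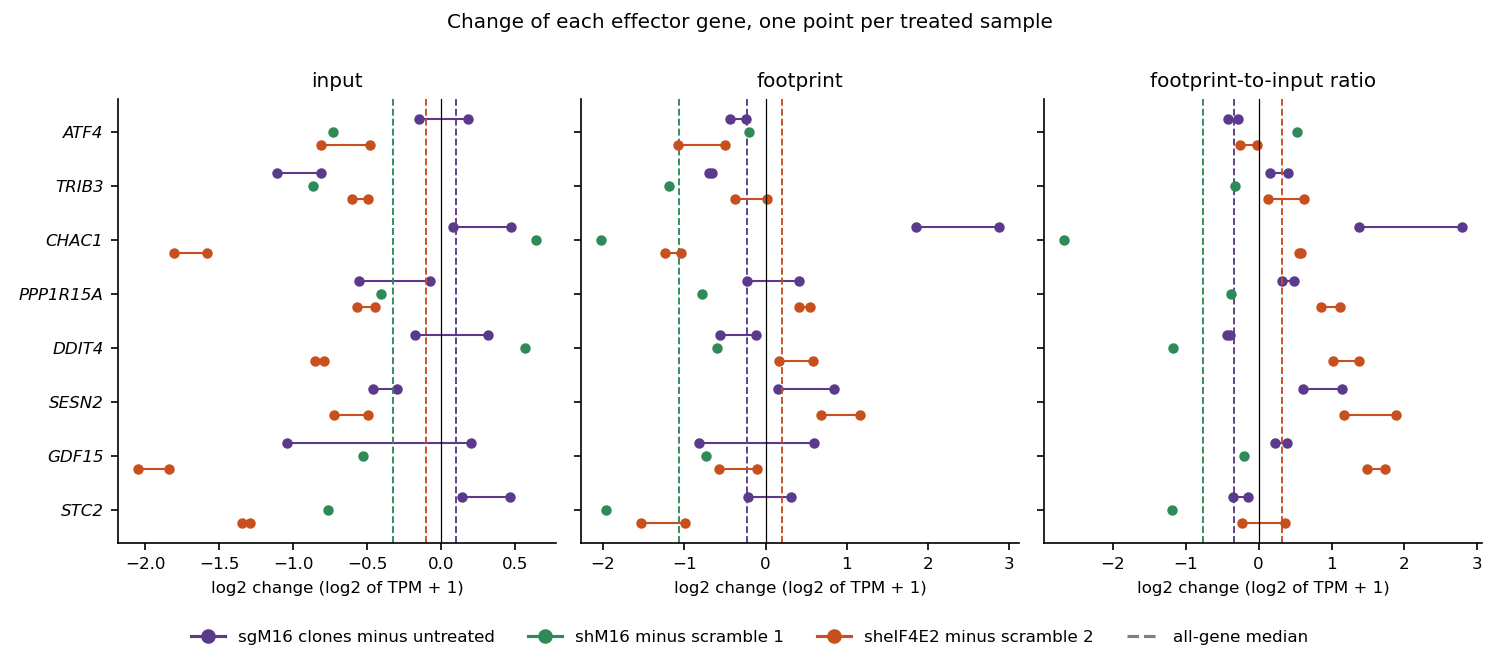
Log2 change of TPM + 1 against the control of the same table in input, footprints and their ratio for the 8 effectors measured, with 1 point per treated sample and a line between replicates; dashed lines give the all-gene median of each comparison. In input every sheIF4E2 point lies left of its all-gene median of -0.10, and the sgM16 points of ATF4, GDF15 and DDIT4 fall on both sides of 0.

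The footprint-to-input ratios order the effectors in another way than their mRNA levels. ATF4, whose upstream open reading frames are known to hold ribosomes off the coding sequence in unstressed cells, had a ratio of 0.0777 to 0.271 over the 8 samples. It ranked between percentiles 0.845 and 30.1 of the genes with at least 20 input reads in the same sample. PPP1R15A, also known for an inhibitory upstream reading frame, had 0.0565 to 0.433 and ranked between percentiles 2.08 and 53.8. TRIB3 had 0.192 to 0.435 (percentiles 15.4 to 30.0), a narrow span. STC2 had 0.254 to 0.627 (percentiles 30.7 to 53.7) and DDIT4 had 0.268 to 0.890 (percentiles 36.9 to 76.7), with a median of 0.638 against 0.453 for STC2. ATF4 and DDIT4, alike in mRNA level, had ratio intervals that did not overlap in 7 of 8 samples; the exception was shscramble replicate 2, with 0.161 to 0.340 for ATF4 and 0.189 to 0.373 for DDIT4.

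The ratios of the controls differed as well. The all-gene median ratio was 0.709 in untreated cells, 0.577 in shscramble replicate 1 and 0.339 in shscramble replicate 2, so ratios are compared by their percentile. DDIT4 ranked at 76.7 and 65.7 in sheIF4E2 against 36.9 in its control, and PPP1R15A at 4.74 and 9.47 against 2.08. In untreated cells and shscramble replicate 1 DDIT4 ranked at 60.1 and 74.2, and PPP1R15A at 6.67 and 34.9, so neither gene set both knockdown samples apart from all 3 controls. TRIB3 ranked at 29.2 and 25.3 in the sgM16 clones against 17.7 in untreated cells. CHAC1, GDF15 and SESN2 have so few footprint reads that their ratios carry intervals of more than a factor of 10 in several samples, such as 0.00471 to 1.65 for CHAC1 in sheIF4E2 replicate 1.

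**Figure D4:**
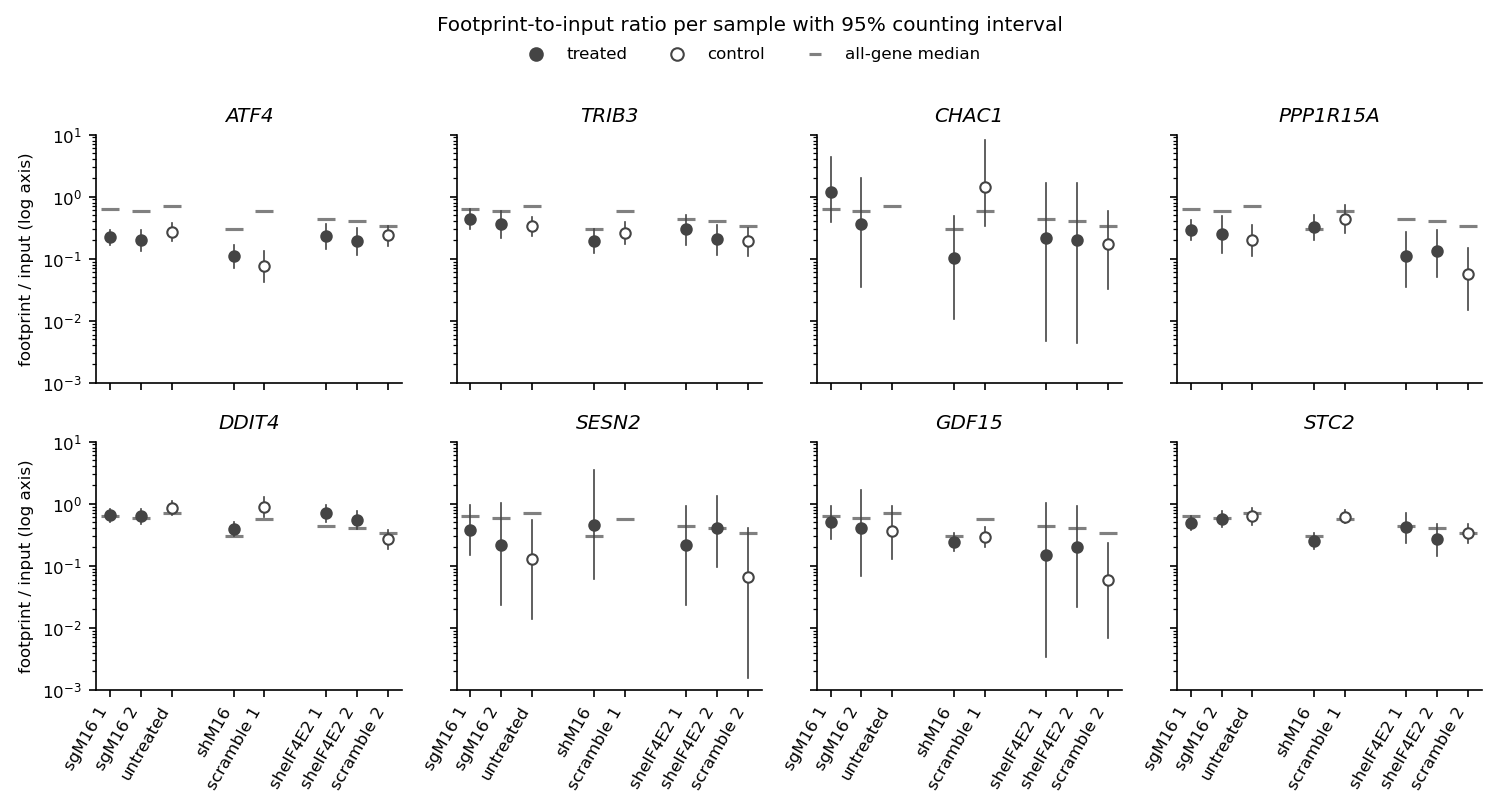
Footprint TPM over input TPM of 8 effectors in each sample on a logarithmic axis, with 95% counting intervals, treated samples filled and controls open; grey bars give the all-gene median of the sample. ATF4 lies below the grey bar in every sample, DDIT4 lies above it in all samples but shscramble replicate 2, and a ratio of 0 (CHAC1 in untreated cells) is not drawn.

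The wider pathway was read from lists of textbook genes. Of 35 measured targets of ATF4 outside the 9 effectors, 27 were lower and 4 higher in both sheIF4E2 replicates in input, with a median of -0.64 against -0.10 over all genes, where 46.0% of genes were lower in both and 30.1% higher. Limma called 0 of them and voom called 10 lower (2.47% of genes). Set against the other controls the input count was not kept. Against untreated cells 15 of 35 were lower (19.8% of genes) and 14 higher (57.4%). Against shscramble replicate 1 12 were lower (33.6%) and 19 higher (52.1%). EPRS1, the glutamyl-prolyl-tRNA synthetase, had 5.86 and 6.60 TPM in sheIF4E2 against 23.1 TPM in the control, a change of -1.74 (SE 0.36, adjusted p = 0.381; voom adjusted p = 0.00209). SLC38A2, a neutral amino acid transporter, had 29.1 and 34.9 TPM against 87.2 TPM (change -1.42, SE 0.29, adjusted p = 0.381). PSAT1, an enzyme of serine synthesis, had a change of -1.10 with an adjusted p of 0.497, and SLC7A11, the cystine transporter, had 33.8 and 28.2 TPM against 62.7 TPM (adjusted p = 0.513). Of the genes whose elements are printed above, voom gave SLC1A5 -0.65 in input and -0.92 in footprints (adjusted p = 0.000212 and 0.0028). It gave MARS1 -0.56 in input (0.042) and AARS1 -0.93 in footprints (0.0254). SLC1A5, MARS1 and AARS1 were chosen after their values were seen, and a link to the element was not tested. Voom called CHAC1, ASNS and CEBPG in neither assay. EPRS1, PSAT1 and SLC38A2, which it called lower in input, are not among the 12 targets found with the element. In footprints 23 of 35 targets were lower in both (22.6% of genes) and 6 higher (48.0%), with a median of -0.44 against 0.20. Voom called 5 of them lower (0.442% of genes). Against untreated cells 29 were lower in footprints (64.5%) and 0 higher (13.1%). Against shscramble replicate 1 23 were lower (38.1%) and 5 higher (35.0%).

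In the METTL16 clones the same 35 targets had 14 higher (43.3% of genes) and 10 lower (29.6%) in both clones in input. Their median was -0.05 against 0.10, and limma and voom called 0. Footprints of 5 of the 35 were higher in both clones (18.4% of genes) and those of 22 lower (52.9%), with a median of -0.38 against -0.23. SLC38A2 and EPRS1, both below the control in sheIF4E2 input, lay above it in the input of the clones. In clone footprints SLC38A2 was also above the control (0.82 and 0.86), but EPRS1 was below it (-0.55 and -0.21). SLC38A2 input was 89.7 and 77.7 TPM in the clones against 28.0 TPM in untreated cells (change 1.54, SE 0.27, adjusted p = 0.186), and EPRS1 was 11.8 and 16.3 TPM against 4.76 TPM (1.37, SE 0.36, adjusted p = 0.304). SLC7A11 input had a change of 1.09 (adjusted p = 0.327), while its footprint-to-input ratio changed by -1.24 (adjusted p = 0.561). For SLC38A2 and EPRS1, untreated cells had the lowest input of all 8 samples, so the level in sheIF4E2 was close to that of 1 of the 3 controls. In shM16 25 of 34 targets were lower in input and 34 of 34 in footprints, as were 71.2% and 95.2% of all genes.

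Chaperones and other genes of the ATF6 and IRE1 arms of the unfolded protein response were lower in both sheIF4E2 replicates for 17 of 18 in input (46.0% of genes), with a median of -0.42 against -0.10 over all genes. Voom called 3 of them lower (2.47% of genes) and limma 0. Against shscramble replicate 1 16 of 18 were lower in both (33.6% of genes), but against untreated cells 1 was lower (19.8%) and 9 were higher (57.4%). CANX, a lectin chaperone, had 57.9 and 49.5 TPM against 111 TPM (change -1.04, SE 0.24, adjusted p = 0.486), and XBP1, the IRE1 target, had 39.6 and 31.7 TPM against 63.4 TPM (change -0.82, SE 0.31, adjusted p = 0.654). Footprints of 9 of the 18 were lower in both sheIF4E2 replicates (22.6% of genes) and those of 5 higher (48.0%), with a median of -0.06 against 0.20. Against untreated cells 11 were lower in footprints (64.5%) and 3 higher (13.1%). Against shscramble replicate 1 these counts were 16 (38.1%) and 0 (35.0%). The footprint-to-input ratio was higher in both replicates for 14 (52.8% of genes), with changes of 0.76 for CANX and 0.62 for XBP1. In the clones 11 of the 18 were higher in both in input (43.3% of genes). HSP90B1, an endoplasmic reticulum chaperone, had an input of 25.3 and 15.2 TPM in the clones against 4.06 TPM in untreated cells (change 2.03, SE 0.41, adjusted p = 0.223). Its footprint-to-input ratio went the other way, with a change of -1.88 (SE 0.58, adjusted p = 0.561). Footprints of 6 of the 18 were higher in both clones (18.4% of genes) and those of 5 lower (52.9%), with a median of 0.012 against -0.23.

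The eIF2 kinases, subunits and exchange factors had 8 lower and 3 higher of 16 in sheIF4E2 input, with a median of -0.11 against -0.10. Over all genes 46.0% were lower in both replicates and 30.1% higher. These shares apply to each count of sheIF4E2 input that follows in this paragraph. EIF2S1, the phosphorylated subunit, had a change of -0.60 (SE 0.35, adjusted p = 0.774). Of the other mRNAs with upstream reading frames, 3 were lower and 1 higher of 5, and of the paralogs of the effectors 3 lower and 2 higher of 7. Hypoxia targets had 5 lower and 1 higher of 8, whereas p53 targets had 3 lower and 6 higher of 13. Glucocorticoid targets had 2 of 4 in each direction, and among them DUSP1, a phosphatase of MAP kinases, rose in sheIF4E2 footprints to 165 and 188 TPM, against 61.1 TPM in the control (change 1.51, SE 0.18, adjusted p = 0.0313). DUSP1 footprints were 58.9 TPM in shscramble replicate 1 but 158 TPM in untreated cells. Its adjusted p was 0.577 against all 3 controls, 0.176 without the intensity trend, 0.076 without a filter and 0.0522 to 0.0556 with other scalings, while voom called it (0.0115). In the clones the input counts were 10 higher and 4 lower of 17 eIF2 genes, 5 and 6 of 14 p53 targets, and 5 and 2 of 8 hypoxia targets. Over all genes 43.3% were higher in both clones and 29.6% lower.

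Over the 8 input libraries the effectors were only partly alike. For 7 effectors listed in all samples, the correlation of each with the mean of the others was highest for ATF4 (r = 0.72), between 0.41 and 0.62 for TRIB3, CHAC1, PPP1R15A, DDIT4 and STC2, and -0.22 for GDF15. Among 5119 other genes, those closest to the effectors' mean profile were DOCK5 (r = 0.95), RC3H2 (0.93), IMMT (0.93), MTHFD2 (0.93) and RPL7L1 (0.92). MTHFD2, a mitochondrial folate enzyme, is itself a textbook ATF4 target. These values are over 8 libraries that share controls and depth and are given as a description; the mean profile was highest in shscramble replicate 2 and lowest in shM16.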

How the data were processed

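Input and footprint libraries of 8 samples were deposited in 3 tables as TPM, made by the authors from reads per gene. Per the submitters' processing notes STAR 2.7.5c, featureCounts 2.0.1, cutadapt 2.8, Bowtie2 2.2.5 and Bowtie 1.3.0 were used with GRCh38; tool roles and gene lengths were not given in the sources used here. The listed genes held 44.6 to 49.8% of the TPM total in input and 16.1 to 35.1% in footprints. All value columns were mapped to samples.

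The members and gene lists were chosen with earlier results of these data known. Within each table, log2(TPM + 1) of genes with a mean of at least 1 TPM in both assays (8505, 8168 and 8597 genes) was fitted by group with limma 3.58.1 in R 4.3.3, with an intensity trend and Benjamini-Hochberg adjustment at 0.05. The pseudocount understates changes of low genes. With 1 control per assay and table, the spread came from the treated replicates, and p-values measure only that spread; the sgM16 replicates are clones. The shM16 sample had no test in its own table. Reads recovered from TPM gave exact Clopper-Pearson intervals and a voom fit, an alternative.

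All members and both targets were named. Of each other list up to 4 genes per table and measure with the largest change and a mean of at least 10 TPM in both assays were named. Outside this rule for sheIF4E2, ASNS was named for its promoter element. SLC1A5, AARS1 and MARS1 were named for their element after their voom values were seen. Genes of like pattern were the 5 with the highest r. Replicate numbers could not pair treated samples with the single control of a table.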

Additional observations from a re-analysis of the deposited data

Results flagged for a closer look

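The METTL16 clones and the METTL16 hairpin sample lay on opposite sides of their controls in several measures of the effectors, and none of these differences was tested. Each value here is the mean log2 change of the sgM16 clones minus the change of the shM16 sample. For STC2 input it was 1.07, with 0.14 and 0.46 in the clones and -0.77 in shM16. For CHAC1 footprints it was 4.39, and for the CHAC1 footprint-to-input ratio 4.75; both rest on 0 reads in untreated cells and move with the pseudocount. The ratio of ATF4 gave -0.88, as it was lower in both clones (-0.29 and -0.42) and higher in shM16 (0.53). The ATF4 ratio change was 0.28 in the clones and -0.54 in shM16 against all 3 controls in 1 fit, which is the opposite order; shscramble replicate 1 had an ATF4 ratio of 0.0777, against 0.271 and 0.237 in the other controls. The ratio of TRIB3 gave 0.60, that of GDF15 0.52 and that of PPP1R15A 0.78, each higher in both clones and lower in shM16. In that fit the ratio change of GDF15 was 1.23 in the clones and 0.29 in shM16 and that of PPP1R15A 0.60 and 0.87, so neither was lower in shM16; that of TRIB3 was 0.64 and -0.28, and that of CHAC1 0.99 and -0.76. In the same fit CHAC1 footprints were at 0.59 and -0.97, and STC2 input at -0.029 and -0.66, below the controls in both. The all-gene median ratio change was -0.33 in the clones and -0.76 in shM16, and the 3 tables were scaled separately.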

How the results depend on the processing

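Each result was recomputed with another pseudocount, filter, scaling or trend, with voom on recovered reads, against all 3 controls together, and without each treated replicate. Limma called 0 effectors in sgM16 and sheIF4E2 under each of these settings; voom called 3 in sheIF4E2 input and 1 in its footprints. Each table has 1 control library per assay, so leaving out a control was not possible, and without 1 treated replicate a value has no test. Genes with few reads (CHAC1, GDF15, SESN2 footprints) are limited by depth. The cause of the shifts below was not tested.

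In sheIF4E2 input the effectors' median was -0.63 with median-of-ratios scaling, -0.64 with scaling to the sum of the listed genes and -0.64 by voom, -0.34 against all 3 controls, and -0.83 to -0.70 without either replicate. Voom gave -0.72 for DDIT4, -1.88 for GDF15 and -1.24 for STC2, all past the threshold, and called 369 genes. Genes called were 0 with a pseudocount of 0.1, without a filter and without a trend, and 3 with a mean of 5 TPM. Against all 3 controls DDIT4 input turned to 0.061. The 8 effectors lower in both replicates were 6 against untreated cells and 2 against shscramble replicate 1, comparisons chosen after seeing the data. In the same comparisons the 27 of 35 other ATF4 targets lower in both replicates were 15 and 12, and the 17 of 18 genes of the other unfolded protein arms were 1 and 16.

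In sheIF4E2 footprints the median was -0.33 and -0.29 with pseudocounts of 0.1 and 0.5, -0.18 without a filter and with a mean of 5 TPM, -0.46, -0.47 and -0.49 with median-of-ratios, quantile and listed-sum scaling, -0.49 by voom, -0.42 against all 3 controls and -0.24 without either replicate. Genes called were 165 with a pseudocount of 0.1, 1 without a filter, 22, 28 and 11 with these scalings, 0 without a trend and 3 against all 3 controls. STC2 reached -1.55 by voom, past the threshold. TRIB3 was 0.016 without replicate 2 and -0.37 without replicate 1, and PPP1R15A to -0.54 against all 3 controls.

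The median ratio change in sheIF4E2 was 0.73 with a pseudocount of 0.1, 0.99 without a filter, 0.37 with a mean of 5 TPM, 0.48, 0.49 and 0.46 with the scalings, 0.47 by voom and -0.023 against all 3 controls. The STC2 ratio turned to -0.27, -0.23 and -0.30 with the scalings, -0.30 by voom, -0.23 to 0.36 without either replicate and -0.52 against all 3 controls. Against all 3 controls the ratio also turned to 0.30 for ATF4, -0.25 for CHAC1, -0.46 for PPP1R15A and -0.023 for TRIB3.

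In sgM16 input genes called were 0 with either pseudocount, without a filter, with the scalings, without a trend and against all 3 controls, and 4 by voom. The median was -0.27 with median-of-ratios scaling, -0.19 with listed-sum scaling, -0.20 by voom and -0.14 to -0.11 without either clone. ATF4 turned to -0.11, -0.026 and -0.039 with those 3 settings, and DDIT4 to -0.051 with median-of-ratios scaling. Without either clone ATF4 was -0.15 to 0.18, DDIT4 -0.17 to 0.32 and GDF15 -1.04 to 0.20; against all 3 controls, CHAC1 was -0.40 and STC2 -0.029.

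In sgM16 footprints genes called were 3 and 1 with pseudocounts of 0.1 and 0.5 and 1 with a mean of 5 TPM. The median was -0.22 with a mean of 5 TPM, 0.20 with each scaling, 0.31 by voom, 0.24 against all 3 controls and -0.17 to 0.10 without either clone. GDF15 turned to 0.10 with each scaling, 0.37 by voom and -0.82 to 0.60 without either clone. Without either clone PPP1R15A was -0.23 to 0.41 and STC2 -0.21 to 0.32. Against all 3 controls ATF4 turned to 0.29 and DDIT4 to 0.24.

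The median ratio change in sgM16 was 0.017 with a mean of 5 TPM, 0.64, 0.56 and 0.56 with the scalings, 0.68 by voom, 0.60 against all 3 controls and 0.19 to 0.40 without either clone. The ATF4 ratio turned to 0.0052 with median-of-ratios scaling and 0.28 against all 3 controls, the STC2 ratio to 0.11 and 0.028 with median-of-ratios and listed-sum scaling and 0.059 against all 3 controls, and the DDIT4 ratio to 0.12 against all 3 controls.

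In shM16, effectors at least 1 log2 unit from the control numbered 3 in input and 0 in the ratio against all 3 controls. In footprints the median was 0.42 with median-of-ratios scaling, 0.41 with quantile scaling and 0.27 by voom, with 1 effector past 1 log2 unit under each. The all-gene footprint median of -1.06 in that table is the shift these scalings remove.

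With each sample as a replicate block over its input and footprint libraries, a block fitted for the ratio alone, 0 ratios were called in sgM16 and in sheIF4E2, so the block changed no adjusted call. Unadjusted p-values of the sheIF4E2 ratio were above 0.05 under it, at 0.0518 for GDF15 and 0.0655 for DDIT4; deviations of a sample's libraries correlated at 0.15 in sgM16 and -0.02 in sheIF4E2.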
